A study of Mus musculus with 6 samples.

Results

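Interleukins are secreted messengers through which epithelial, stromal and immune cells act on each other, and most bind receptor chains of their own family. The genes described here were the interleukins and interleukin receptors measured in mouse intestinal tumors of 2 sites. Members were the probe sets whose platform gene symbol named exactly 1 gene beginning with Il and a digit, Il25 left out. This gave 65 genes of the 12393 named on the array, measured by 92 of its 22626 probe sets. By role the genes were 30 ligands, 31 receptor chains, 3 secreted antagonists (Il1rn, Il18bp and Il1f5) and the enzyme Il4i1, an amino acid oxidase that carries the name without being an interleukin. A further 2 probe sets named an interleukin together with another gene and were left out by the rule.

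The data set held 6 Affymetrix arrays, 3 of duodenal and 3 of cecal tumors, labelled as biological replicates of each site. The labels do not say whether a duodenal and a cecal tumor of the same number came from 1 mouse. All mice carried the Apc1638N allele, which predisposes to intestinal tumors, and were Rb1 deficient. The duodenal group could include tumor tissue from the pylorus, the outlet of the stomach. The sources used here give neither the way Rb1 was removed nor the age of the mice, and no normal tissue was measured, so each difference below is one between tumors of the 2 sites. Tumors were numbered 1 to 3 at each site, and values below are given in that order, with duodenum and cecum standing for the tumors of these sites. Tumor 2 of both sites came from a female by its arrays (Xist at 4169.1 and 4486.3, Eif2s3y at most 13), the other 4 tumors from males (Xist at most 61.6). Array medians ran from 164.6 to 181.8. The stomach and pylorus markers Gkn1, Gkn2, Tff1, Tff2, Muc5ac, Gast, Cldn18 and Anxa10 summed to between 53553.4 and 78300.9 in duodenal and between 575 and 809.4 in cecal tumors. The intestinal epithelial markers, such as Krt8, Vil1 and Epcam, were bright on all arrays, with sums from 54627.2 to 61411.6 in duodenal and from 66830.1 to 71332 in cecal tumors.

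Interleukins of the IL-1 family, among them IL-18 and IL-33, are made by epithelium and stroma as well as by myeloid cells, and several need cleavage by a caspase before they are active. The IL-17 receptor chains pair with each other, and in gut epithelium they drive antimicrobial and neutrophil-recruiting genes. IL-15 and IL-7 sustain lymphocytes that lie in and under the epithelium, IL-13 acts on goblet and tuft cells, and IL-10 receptor beta is a chain shared by the receptors for IL-10, IL-22 and the lambda interferons.

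Promoters of the members that differed between the sites are shown first, because the neighbouring genes Il17re and Il17rc, adjacent coding genes on chromosome 6 in the same orientation, each had a probe set that passed, in opposite directions. The windows are the 250 bases before the annotated start, from RefSeq on GRCm38.p6, 5′ to 3′, with CG dinucleotides in capitals. For Il18r1 the first of 3 annotated starts is given. Il10rb and Il15 are named only.
Il17re, chr6:113458521-113458770, plus strand: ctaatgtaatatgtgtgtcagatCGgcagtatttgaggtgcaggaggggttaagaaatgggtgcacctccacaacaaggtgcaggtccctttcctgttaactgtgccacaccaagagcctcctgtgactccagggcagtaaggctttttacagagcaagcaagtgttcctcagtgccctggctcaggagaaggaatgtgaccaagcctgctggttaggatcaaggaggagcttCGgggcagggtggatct
Il17rc, chr6:113471205-113471454, plus strand: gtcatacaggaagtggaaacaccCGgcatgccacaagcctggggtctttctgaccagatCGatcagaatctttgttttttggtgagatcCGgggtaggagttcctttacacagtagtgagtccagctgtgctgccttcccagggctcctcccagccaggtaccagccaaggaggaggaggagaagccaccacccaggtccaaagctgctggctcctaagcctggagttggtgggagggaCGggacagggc
Il13ra1, chrX:36111858-36112107, plus strand: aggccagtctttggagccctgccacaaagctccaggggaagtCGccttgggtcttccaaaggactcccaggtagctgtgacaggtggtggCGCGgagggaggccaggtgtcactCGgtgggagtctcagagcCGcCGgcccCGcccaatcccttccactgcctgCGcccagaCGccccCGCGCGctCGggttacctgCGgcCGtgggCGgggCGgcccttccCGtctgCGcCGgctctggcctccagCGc
Il18r1, chr1:40465302-40465551, plus strand: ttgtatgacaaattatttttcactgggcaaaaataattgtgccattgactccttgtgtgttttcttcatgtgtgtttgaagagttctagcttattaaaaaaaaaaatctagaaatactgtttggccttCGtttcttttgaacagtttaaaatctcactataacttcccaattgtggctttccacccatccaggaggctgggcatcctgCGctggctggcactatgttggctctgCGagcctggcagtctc

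The Il13ra1 window held 21 CG dinucleotides and 70.8% G and C, against a median of 6 and 52.4% over all 32851 windows in the table. The windows of Il17rc, Il18r1 and Il17re held 4, 3 and 2. Searched on both strands, none of these 4 windows held the STAT element TTCNNNGAA, the interferon response element, the CDX core TTTAT, the TATA box TATAAA or the NF-kappaB consensus. Those motifs were present in 7.02%, 2.98%, 37.3%, 12.4% and 3.9% of all windows. The TATA box letters and the CDX core can overlap. A missing match says only that these letters are not in these windows.

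Most interleukin genes were dim in these tumors. A probe set was called bright on an array when it exceeded that array's 40th percentile of intensity, 92.4 to 100.6, which stands in for detection calls. Of the 92 member probe sets 56 were bright on no array, 9 on 1 or 2 arrays and 21 on all 6. By gene, 39 of 65 had no probe set bright on any array, among them 18 of the 30 ligands and 18 of the 31 receptors. The dim genes included the lymphocyte cytokines Il2, Il4, Il5, Il13, Il17a and Il21, with no intensity above 63.3, and Il10 and Il6, with highest values of 17.2 and 63.1. By family, the genes bright on no array were 8 of 18 of the IL-1 family, 10 of 16 of the common gamma chain and IL-13 family, 8 of 11 of the IL-6 and IL-12 family, 4 of 8 of the IL-17 family, 4 of 5 of the IL-10 family and all 4 of the common beta chain family. The receptor chains Il2ra, Il5ra, Il9r, Il21r and Il10ra were also below the level on every array. In bulk tumors, fewer cells of a type and less RNA per cell cannot be told apart.

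**Figure D1:**
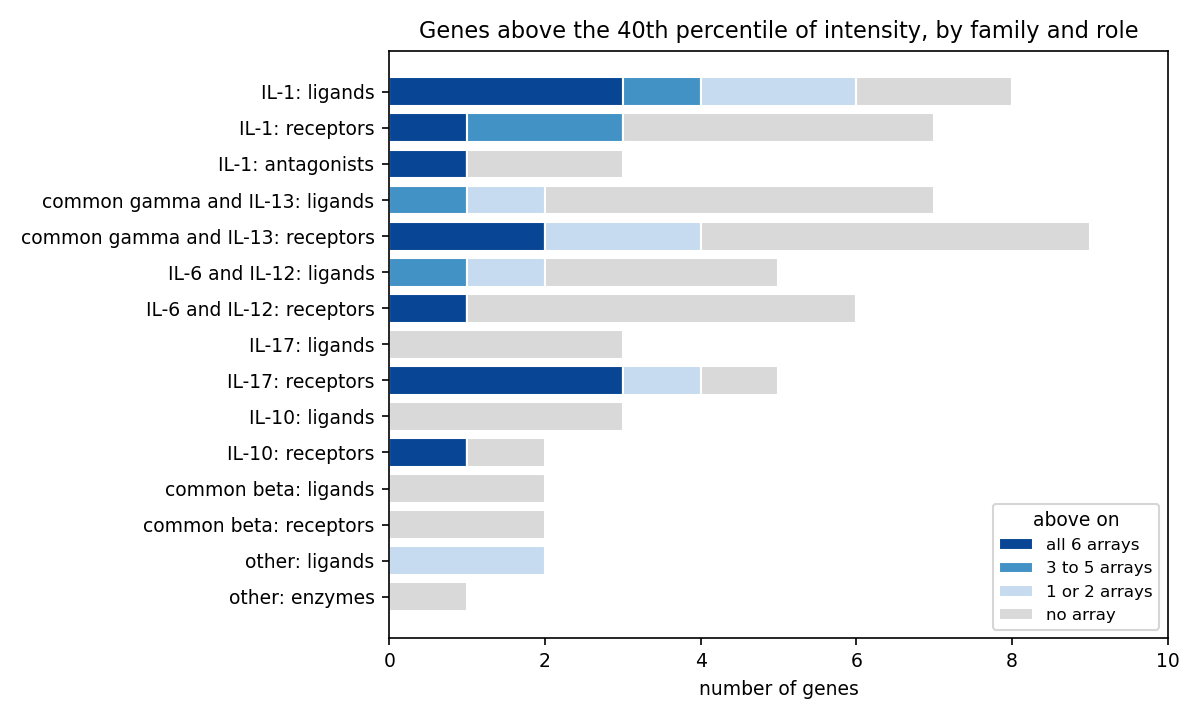
Number of member genes (x axis) by family and role, divided by how many of the 6 arrays held a probe set of the gene above that array's 40th percentile of intensity. Of the 65 genes, 39 were above it on no array and 12 on all 6.

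The test covered the 27 probe sets, of 17 genes, that were bright on at least 3 arrays, 29.3% of the members where 61.3% of all probe sets met that filter. Of these 27, 7 passed limma at an adjusted p under 0.05, 5 of them higher and 2 lower in cecal tumors. Over all 13866 tested probe sets 9.3% passed, 5.24% higher and 4.07% lower. The 7 stood for 6 genes: Il15, Il13ra1, Il10rb and Il17rc were higher in cecal tumors, and Il18r1 and Il17re were lower. Il15 and Il18r1 were bright at 1 site only and entered the test through it, so their direction largely follows from the filter. Of the other 25 tested probe sets 5 passed, 2 of them of Il13ra1. The share of all probe sets without such entries through 1 site was not computed. With each gene taken by its brightest tested probe set, 4 of 17 passed, where 10.4% of all tested genes did. These 4 were Il10rb, Il17rc, Il15 and Il18r1, so 2 of them had entered through 1 site, and no excess is read from this count. In 11 of the 27 probe sets the values of the 2 sites did not overlap, against 29.5% of all tested probe sets. Of the 65 member probe sets left out of the test 12 did not overlap, against 15.8% of all probe sets left out. The tested members' log2 folds, cecal minus duodenal on the log2(intensity + 16) scale, ran from -2.07 to 1.39 with a median of 0.19, where the median of all tested probe sets was -0.04. With the replicate number as a block 9 members passed, 6 higher and 3 lower, where 11.3% of all probe sets did, 6.12% higher and 5.21% lower.

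With 1 array left out, fewer probe sets passed both among the members and over the whole array. The count of members was 3 without duodenal tumor 3, without cecal tumor 1 or without cecal tumor 2, where 6.17%, 4.75% and 5.05% of all tested probe sets passed. It was 5 without duodenal tumor 1 or 2 (5.88% and 8.61% of all) and 6 without cecal tumor 3 (8.5% of all). With the 4 arrays of males alone it was 4, 1 higher and 3 lower, where 5.01% of all passed. With no filter it was 7 of the 92 (5.03% of all), and with array weights 8, 4 in each direction (14% of all).

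**Figure D2:**
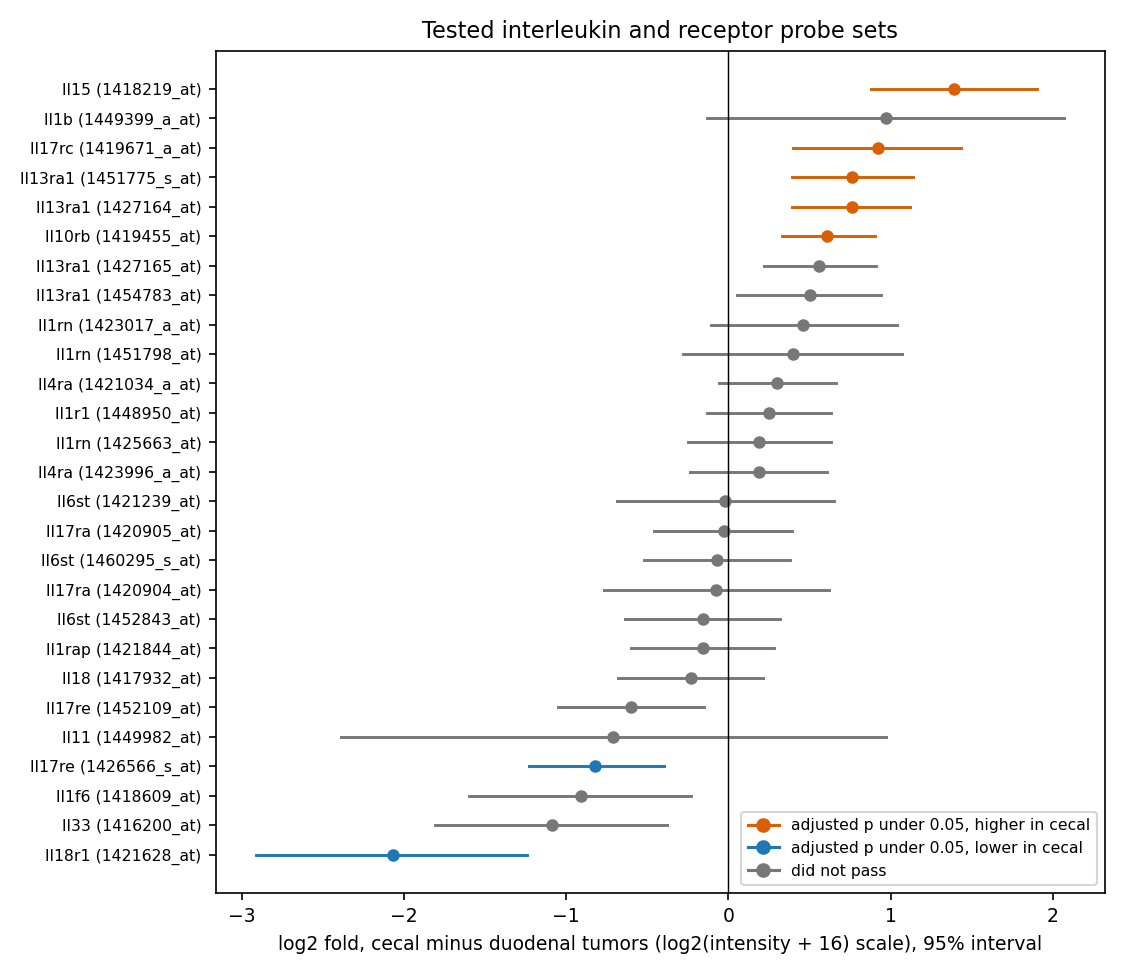
Log2 fold, cecal minus duodenal tumors (x axis, log2(intensity + 16) scale), with its 95% interval from limma for each of the 27 tested probe sets. Il15 lies highest at 1.39 and Il18r1 lowest at -2.07, and 20 of the 27 probe sets, in grey, did not pass.

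Among ligands, Il15, a cytokine that sustains intraepithelial lymphocytes and natural killer cells, was higher in cecal tumors. Its probe set read 54.9, 71 and 64.5 in duodenal tumors 1, 2 and 3 and 250.7, 187.5 and 149.2 in cecal tumors. All cecal values lay above the brightness level and all duodenal values below it. The difference was at least 1.91-fold, from means of 63.5 ± 8.1 (SD, n = 3) and 195.8 ± 51.3 (n = 3), with a fitted log2 fold of 1.39 ± 0.22 (SE, limma adjusted p = 0.00738). The call held under each of the 15 alternatives that tested it, with adjusted p from 0.0023 to 0.0452. All of these except the fit with no filter kept the filter that Il15 had passed through the cecal tumors alone. Il15ra, the chain that presents IL-15 to neighbouring cells, had 2 probe sets, both too dim to be tested. The brighter read 170.6, 96.1 and 87.4 in the duodenum and 14.7, 16 and 56.2 in the cecum, without overlap, and the other, at 34.2 to 61.7 over all arrays, overlapped. Of all probe sets left out of the test 15.8% did not overlap. Il2rb, the signalling chain for IL-2 and IL-15, stayed at or below 80.2.

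T cell and natural killer markers were mostly dim at both sites. Of 10 T cell markers on the array 8 were bright on no array, and Cd4 and Cd8a read at most 15.7 and 49.5. Their summed level was 336.1 to 490.4 in duodenal and 585.3 to 608.4 in cecal tumors, without overlap. The brightest of them, Thy1, is also a fibroblast marker and was at 84.2 to 144.6 and 190.6 to 246.7. The sum of 7 natural killer and innate lymphoid markers was 102.7 to 309.5 in duodenal and 319.5 to 585.9 in cecal tumors. By the mean over 6 arrays its brightest member was Eomes, at 18.5 to 53.4 and 123.9 to 282.6, while Ncr1, a defining receptor, read at most 14. Among 8 B and plasma cell markers the plasma cell genes Jchain and Pou2af1 were bright on all arrays, at 5182.2 to 9974 and 126.7 to 335.5, overlapped between the sites and did not pass (limma adjusted p = 0.759 and 0.915). The part of these markers in the Il15 difference was not tested.

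Il7, the stromal and epithelial cytokine for lymphoid survival, was too dim to be tested. Its brighter probe set read 47.5, 46.4 and 58.4 in the duodenum and 155.7, 91.3 and 83.1 in the cecum, and the other 7.8, 10.6 and 15.9 against 51.1, 41.3 and 31. In both the sites did not overlap, as was so for 15.8% of all probe sets left out of the test. Its receptor Il7r overlapped in the brighter probe set, at 88.4, 122.3 and 88.9 against 82.1, 106.8 and 76.6. Il34, a ligand of the macrophage growth factor receptor, read 41.2, 77.3 and 43.4 in the duodenum and 100.6, 84.4 and 117.7 in the cecum, and was too dim to be tested. Macrophage markers summed to 8600 to 10123.3 and to 10283 to 12508.4, and none of the 9 tested passed, where 10.4% of all tested genes did.

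**Figure D3:**
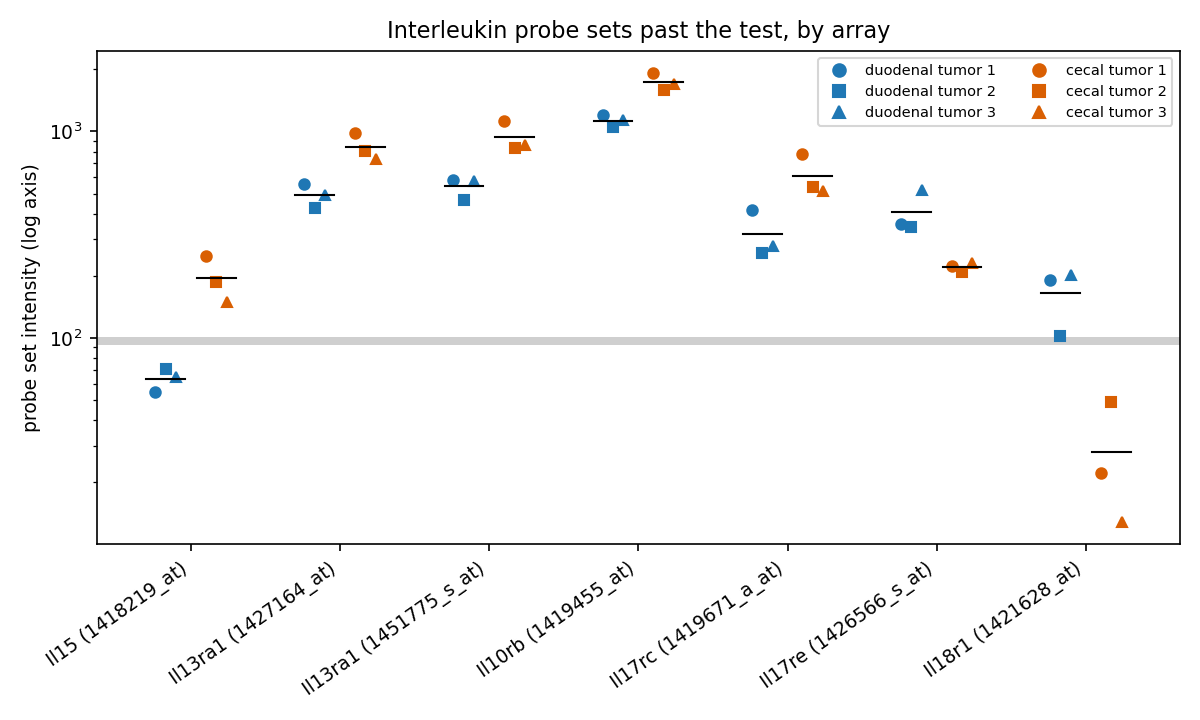
Intensity (y axis, log scale) of the 7 member probe sets that passed limma, by array, with the mean of each group as a line and the range of the arrays' 40th percentiles as a grey band. The 3 cecal values lie above the 3 duodenal values for Il15, both Il13ra1 probe sets, Il10rb and Il17rc, and below them for Il17re and Il18r1.

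IL-18 is an IL-1 family cytokine of gut epithelium that acts through Il18r1 and Il18rap and is neutralised by Il18bp. The ligand did not pass. Il18 read 2374.8, 1550.1 and 2348.2 in the duodenum and 2044.4, 1515.4 and 1713.7 in the cecum, with overlap and with tumor 2 lowest at both sites. Its log2 fold was -0.23 (95% interval -0.68 to 0.21, limma adjusted p = 0.535), so a fall as large as 0.68 on this scale lies within the interval. Il18r1, the ligand-binding chain, read 190.5, 102.1 and 201.9 in the duodenum and 22.1, 48.8 and 12.9 in the cecum. All duodenal values were above the brightness level and all cecal values below it. Duodenal tumors had at least 1.64-fold more Il18r1, with the cecal side set at its brightness level. Means were 164.8 ± 54.6 in duodenal and 27.9 ± 18.6 in cecal tumors (SD, n = 3 each). The fitted log2 fold of Il18r1 was -2.07 ± 0.36 (SE, limma adjusted p = 0.0108). Its adjusted p was at most 0.0498 under the 15 alternatives that tested it. All of these except the fit with no filter kept the filter that Il18r1 had passed through the duodenal tumors alone. The second chain Il18rap and the inhibitor Il18bp were bright on no array. Neither overlapped between the sites, as was so for 15.8% of all probe sets left out of the test, and the gap of Il18rap was narrow. Il18rap read 35.4 to 48.6 in the duodenum and 32.4 to 34.9 in the cecum, and Il18bp 35.4 to 52.3 and 65.4 to 79.8.

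Il33 is an alarmin stored in nuclei of epithelial, endothelial and stromal cells. It read 898.3, 391.4 and 809 in the duodenum and 322.1, 230 and 363.6 in the cecum. The values did not overlap, and tumor 2 was lowest at each site. Its log2 fold of -1.09 ± 0.31 (SE) did not pass (limma adjusted p = 0.068). It passed with the replicate number as a block (adjusted p = 0.00801), without duodenal tumor 2 (0.00612), with the males alone (0.0107) and with array weights (0.0121). Endothelial markers summed to 512.9 to 610.8 in duodenal and 503.6 to 606.2 in cecal tumors, and smooth muscle markers to 4610.7 to 7967.4 and 5366.4 to 6705. Fibroblast markers summed to 11954.6 to 15143 in duodenal and 16674 to 21051.2 in cecal tumors. Of these markers 2 of 8, Col3a1 and Thy1, rose, where 5.7% of all tested genes did, with Col1a1 added by the block (limma adjusted p = 0.0101). The part of these cell types in the Il33 values was not tested.

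Il1f6, which encodes an IL-36 cytokine of barrier epithelium, read 229, 190.7 and 101.1 in the duodenum and 63.4, 80.5 and 99.6 in the cecum. The sites were separated by the narrow gap between duodenal tumor 3 and cecal tumor 3. Its log2 fold was -0.91 ± 0.30 (SE, limma adjusted p = 0.103). It passed without duodenal tumor 3 (adjusted p = 0.0291) and with array weights (0.0321). The other IL-36 ligands Il1f8 and Il1f9 overlapped between the sites at 22.9 to 108.7 and 46.5 to 151.4, and the receptor chain Il1rl2 was bright on no array. The IL-36 antagonist Il1f5 had 2 probe sets, both dim on all arrays.

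Il1b, the main inflammatory IL-1 of myeloid cells, read 182.3, 123.4 and 101.4 in the duodenum and 106.9, 423.8 and 436.7 in the cecum. Cecal tumor 1 lay among the duodenal tumors, and the other cecal tumors above all of them. The log2 fold was 0.97 ± 0.48 (SE, 95% interval -0.13 to 2.07, limma adjusted p = 0.273), and without cecal tumor 1 it was 1.59 (adjusted p = 0.0164). Of 9 neutrophil markers 6 were bright on no array, and their sum was 1139.3 to 3873.4 in duodenal and 384.9 to 1887.2 in cecal tumors. Ltf, an iron-binding granule and secretory protein, made up most of that sum in the duodenum, at 3377.2, 848.8 and 1908.9, against 47.8, 173.5 and 151.4 in the cecum (log2 fold -3.82 ± 0.54 SE, limma adjusted p = 0.00449). The neutrophil products S100a8 and S100a9 were lower in cecal tumor 1, at 93.6 and 71.5, than in cecal tumors 2 and 3, at 154.1 and 825.3 and at 155.5 and 656.7. In the duodenum S100a8 read 144.8, 58.9 and 30.9 and S100a9 149.3, 21.9 and 23.5, so duodenal tumor 1 was close to cecal tumor 2. Neither gene passed (limma adjusted p = 0.241 and 0.224). The part of such cells in the Il1b values was not tested. Il1a was bright on no array.

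Il1rn, the receptor antagonist that blocks IL-1, was measured by 3 probe sets that were bright on all arrays. The brightest read 1038.5, 1099.6 and 520.8 in the duodenum and 993.9, 1459.7 and 951.1 in the cecum, with overlap. Its log2 fold was 0.40 (95% interval -0.28 to 1.07, limma adjusted p = 0.473), and the other probe sets gave 0.46 and 0.19, which did not pass either. The signalling receptor Il1r1 read 244.6, 284.9 and 196.9 in the duodenum and 276.6, 300.4 and 286 in the cecum (log2 fold 0.25, 95% interval -0.13 to 0.63, adjusted p = 0.422). The decoy receptor Il1r2 was dim on all arrays, at 37.5 to 47.1 in duodenal and 54.5 to 72.5 in cecal tumors. Its sites did not overlap, as was so for 15.8% of all probe sets left out of the test. The accessory chain Il1rap gave a log2 fold of -0.16 in its tested probe set (adjusted p = 0.684).

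Of 5 IL-17 receptor genes 3 were tested, of which Il17rc was higher in cecal tumors, Il17re was lower in 1 of its 2 probe sets and Il17ra did not pass. Il17rc, which joins Il17ra in the receptor for IL-17A and IL-17F, read 414.7, 259 and 279.4 in the duodenum and 779.5, 540.9 and 515.5 in the cecum. Tumor 1 was highest at each site, and the sites did not overlap. The log2 fold was 0.92 ± 0.22 (SE, limma adjusted p = 0.0399), from means of 317.7 ± 84.6 and 612 ± 145.6 (SD, n = 3 each). It no longer passed without duodenal tumor 2 or 3 (0.0961 and 0.12), without cecal tumor 1 or 2 (0.124 and 0.0876), with array weights (0.0632), with no filter on dim probe sets (0.0618) and with the males alone (0.153).

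Il17re, the chain that joins Il17ra in the epithelial receptor for IL-17C, was lower in cecal tumors by 1 of its 2 probe sets. That probe set read 357.1, 345.3 and 520.4 in the duodenum and 223.4, 207.8 and 229.9 in the cecum, without overlap. Its log2 fold was -0.82 ± 0.18 (SE, limma adjusted p = 0.0268). The other read 450.4, 364.3 and 456.1 against 222.2, 358.3 and 252.9, also without overlap but with cecal tumor 2 close to duodenal tumor 2. Its log2 fold was -0.60 ± 0.20 and did not pass (adjusted p = 0.103). The call of the first was lost without any single array except duodenal tumor 2 (adjusted p = 0.0518 to 0.1) and with the males alone (0.0934), where the second passed (0.0487).

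Il17ra, the chain common to these receptors, overlapped between the sites. Its brighter probe set read 140.7, 114.1 and 143.5 in the duodenum and 153.9, 119.6 and 115.3 in the cecum, with a log2 fold of -0.03 (95% interval -0.46 to 0.39, limma adjusted p = 0.937). The ligands Il17a, Il17b and Il17d were bright on no array, and so was Il17rd. Il17rb, a receptor chain for IL-25, read 67.7 to 100.8 over the 6 arrays and was too dim to be tested. Tuft cell markers summed to 2907.2 to 4239.5 in duodenal and 546.6 to 1185.1 in cecal tumors, mostly Avil. Of 3 tested, Avil and Alox5ap fell, where 4.75% of all tested genes did, with Dclk1 added by the block (limma adjusted p = 0.0329). Trpm5, Pou2f3 and Gfi1b were bright on no array. Trpm5 was lower in the cecum without overlap, where 15.8% of all probe sets left out of the test did not overlap. Pou2f3 and Gfi1b overlapped, with duodenal means of 35.9 and 13.5 and cecal means of 40.9 and 16.1. The stomach and pylorus markers, like the tuft marker sum, were higher at the site where Il17re and Il18r1 were higher and where Il33 had its higher values. Of these stomach markers 8 of 8 fell, where 4.75% of all tested genes did. All of them except Tff1 were bright at the duodenal site only and entered the test through it, so their direction largely follows from the filter. The part of tuft or stomach cells in these members was not tested.

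Il13ra1, which joins Il4ra in the receptor through which IL-13 reaches epithelium, lies on the X chromosome and had 4 tested probe sets, all with a positive fold. The first read 556.5, 426.3 and 492.3 in the duodenum and 982.1, 808.6 and 738.4 in the cecum (log2 fold 0.76 ± 0.16 SE, limma adjusted p = 0.0226). The next read 584.6, 466.5 and 578.4 against 1120.7, 830.3 and 862.3 (log2 fold 0.76 ± 0.16, adjusted p = 0.0236). Neither overlapped between the sites. The brightest read 734.1, 582.1 and 620.2 against 1005.9, 825.2 and 1056.9, also without overlap, and missed the threshold at 0.56 ± 0.15 (adjusted p = 0.0553, or 0.0419 with the block). The last overlapped where cecal tumor 2 and duodenal tumor 1 both read 757.6 (0.50 ± 0.19, adjusted p = 0.166). Duodenal tumor 2, of a female, was lowest of all 6 arrays in each of the 4.

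With each array left out, the log2 folds of the called Il13ra1 probe sets stayed at 0.64 to 0.85 and 0.63 to 0.84. For the probe set at 466.5 to 584.6 in duodenal tumors the call was lost on leaving out any array but cecal tumor 3 (limma adjusted p = 0.0506 to 0.0703), and for that at 426.3 to 556.5 on leaving out duodenal tumor 2 or 3 or cecal tumor 1 or 2 (0.0549, 0.066, 0.0752 and 0.0722). With the males alone the log2 folds were 0.74 and 0.69 (adjusted p = 0.0892 and 0.13).

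The partner chain Il4ra read 472.2, 380.8 and 398.2 in the duodenum and 433.2, 565.6 and 558.5 in the cecum in its brightest probe set, with overlap (log2 fold 0.30, 95% interval -0.06 to 0.66, limma adjusted p = 0.303). The decoy receptor Il13ra2 was dim on all arrays, at 24.1 to 29.4 and 35 to 64.4. The ligands Il4 and Il13 stayed at or below 28.3 and 13.3.

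Il10rb, the chain shared by several receptors of the IL-10 family, read 1199.7, 1049.3 and 1133.1 in the duodenum and 1916, 1596.5 and 1692.3 in the cecum. Every cecal tumor was above every duodenal tumor, and tumor 2 was lowest at each site. Means were 1127.4 ± 75.4 and 1734.9 ± 164 (SD, n = 3 each), with a log2 fold of 0.61 ± 0.12 (SE, limma adjusted p = 0.0191). It no longer passed without duodenal tumor 3 (0.0555), without cecal tumor 1 (0.0642) and with the males alone (0.0929). The partner chain for IL-10 itself, Il10ra, had 3 probe sets with no value above 9.7, and the ligands Il10, Il20 and Il24 were bright on no array.

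In the IL-6 family, Il6st, the shared signal transducer gp130, did not pass in any of 3 probe sets. The brightest read 515.3, 478 and 763.4 in the duodenum and 447.5, 481.2 and 620.5 in the cecum, with tumor 3 highest at each site (log2 fold -0.16, 95% interval -0.64 to 0.32, limma adjusted p = 0.704). Il11, a stromal cytokine that signals through gp130, was the most variable tested member by its standard error. It read 352.2, 200.7 and 182.5 in the duodenum and 24.3, 378.4 and 212.9 in the cecum (log2 fold -0.71 ± 0.73 SE, adjusted p = 0.625), and without cecal tumor 1 the fold was 0.26. Il6 and Il6ra were bright on no array, and Il23a, a subunit of IL-23, read 35.2 to 75.6 and 74.8 to 119.7, too dim to be tested.

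Several genes of the inflammasome and of IL-1 family processing were higher in cecal tumors. Of the inflammasome and processing list 13 of 18 genes were on the array and 10 were tested, of which 5 rose and none fell, with a median log2 fold of 0.60. Over all 8129 tested genes 5.7% rose and 4.75% fell. The list was chosen with earlier results of these data known, so its count is a description and not a test. Casp1, the caspase that cleaves pro-IL-1 beta and pro-IL-18, read 557, 319.8 and 299.3 in the duodenum and 2176.6, 1676.1 and 1709.3 in the cecum (log2 fold 2.24 ± 0.24 SE, limma adjusted p = 0.00108). Nlrp6, a sensor of intestinal epithelium, read 284.8, 226.7 and 196.9 against 1102.3, 789.5 and 949.1 (1.94 ± 0.18, adjusted p = 0.000635). For both, the lowest cecal value was well above the highest duodenal value, and both passed under each alternative run. Casp8, an apoptotic caspase that can also cleave pro-IL-1 beta, rose by 0.84 ± 0.14 (adjusted p = 0.00755), a call lost with the males alone (0.0637).

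Pycard, the adaptor that couples sensors to Casp1, read 3645.8, 2847.1 and 3565.1 in the duodenum and 5503.5, 4977.1 and 4631.8 in the cecum (log2 fold 0.59 ± 0.13 SE, limma adjusted p = 0.0269). It missed the threshold without duodenal tumor 1 or 2 (0.0502 and 0.0561), without cecal tumor 1 or 2 (0.102 and 0.093), without the intensity trend (0.0519) and with the males alone (0.161). Casp4, a caspase that senses bacterial lipopolysaccharide, read 141.3, 65 and 86.7 against 454.7, 218.7 and 199.3 (log2 fold 1.39 ± 0.35 SE, adjusted p = 0.0436). That call was lost without duodenal tumor 2 or 3 (0.103 and 0.117), without cecal tumor 1 or 2 (0.114 and 0.0823), with array weights (0.06), with no filter (0.0728) and with the males alone (0.136). Txnip, a redox protein linked to NLRP3 and the brightest gene of the list by its mean over 6 arrays, gave 0.35 ± 0.17 (adjusted p = 0.267). Of 8 epithelial markers 2 rose in cecal tumors, Vil1 and Cdh17 (log2 folds 0.58 and 1.25), where 5.7% of all tested genes rose. The block added Krt20 (0.78, limma adjusted p = 0.0067). The part of epithelial content in the processing genes was not tested.

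**Figure D4:**
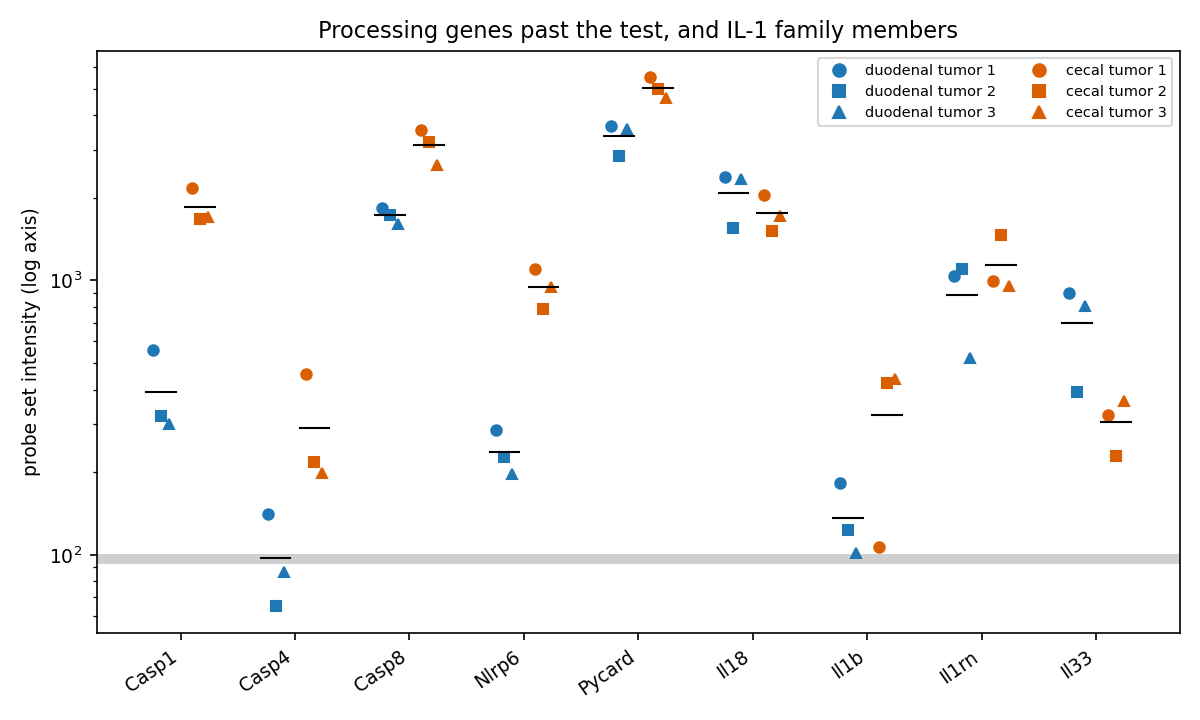
Intensity (y axis, log scale) by array of the 5 processing genes that passed limma and of Il18, Il1b, Il1rn and Il33 by their brightest probe sets, with group means as lines and the range of 40th percentiles as a grey band. The cecal values of Casp1, 1676.1 to 2176.6, lie above the duodenal values, 299.3 to 557, while those of Il18 overlap.

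Of 22 tested Janus kinases, STAT factors and their inhibitors 1 rose and none fell (median log2 fold -0.04), where 5.7% of all tested genes rose and 4.75% fell. It was Ptpn6, a phosphatase that dampens cytokine receptors, which read 288.7, 300.3 and 296.2 in the duodenum and 621.3, 570.8 and 592.3 in the cecum (0.97 ± 0.12 SE, limma adjusted p = 0.00234). A second Ptpn6 probe set gave 0.53 and did not pass (adjusted p = 0.391). Stat3, which carries the signals of gp130 and IL-22, was at 1457 to 2157.7 and 1468.5 to 1951.9 (log2 fold -0.06, adjusted p = 0.882). Jak1 was at 1273.9 to 1657.9 and 1057.1 to 1396.3 (-0.25, adjusted p = 0.391).

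Of 20 tested genes of IL-1 and Toll-like receptor signalling 1 rose and 1 fell (median log2 fold 0.12), where 5.7% of all tested genes rose and 4.75% fell. With the block 2 rose and 1 fell, the added gene being Peli1 (limma adjusted p = 0.0345, or 0.13 without the block). Relb, an NF-kappaB subunit, rose by 0.83 ± 0.19 (SE, limma adjusted p = 0.0322), and Tirap, a receptor adaptor, fell by 0.67 on the log2 scale (adjusted p = 0.0308). The Relb call held without duodenal tumor 1 and was lost on leaving out any other (adjusted p = 0.0579 to 0.106), with no filter (0.0545) and with the males alone (0.168). The Tirap call held without duodenal tumor 2 and was lost on leaving out any other (0.0511 to 0.106) and with the males alone (0.102), and a second Tirap probe set, at -0.33, did not pass (0.287). The NF-kappaB inhibitor Nfkbia and its relative Nfkbiz, the brightest genes of the list over 6 arrays, gave 0.13 and 0.11 and did not pass. Among 10 tested shared receptor chains and partner cytokines outside the Il names 1 rose and none fell (median 0.27), where 5.7% of all tested genes rose and 4.75% fell. It was Ifngr1, the interferon gamma receptor, at 923.7, 768.8 and 970.3 in the duodenum and 1662.3, 1492.3 and 1315.8 in the cecum (0.74 ± 0.14 SE, adjusted p = 0.0168), a call lost without cecal tumor 1 or 2 (0.0632 and 0.0672) and with the males alone (0.118).

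Some genes known to respond to interleukins moved, in both directions. Of 19 tested IL-17 and IL-22 response genes 3 rose and 1 fell (median log2 fold 0.69), where 5.7% of all tested genes rose and 4.75% fell. Saa1, Saa2 and Ccl20 were bright at 1 site only and entered the test through it, so their direction largely follows from the filter and this count supports no direction of the list. The 3 were serum amyloids: Saa3 read 329.3, 410.2 and 225.6 in the duodenum and 968.5, 1051.9 and 1309.2 in the cecum (1.76 ± 0.22 SE, limma adjusted p = 0.00236), and Saa1 and Saa2, dim in all duodenal tumors, rose at least 55.1-fold and at least 2.74-fold. Near-identical copies can share signal between Saa1 and Saa2. Ccl20, a chemokine of epithelium over lymphoid tissue, was at 115.7, 170.1 and 167.5 in the duodenum and 23.9, 46.4 and 47.7 in the cecum, at least 1.55-fold more in the duodenum (adjusted p = 0.00832), a call lost with the males alone (0.0512). The antimicrobial lectins Reg3b and Reg3g, direct IL-22 targets, overlapped widely, with log2 folds of 0.72 ± 0.77 and 1.00 ± 0.77 (adjusted p = 0.636 and 0.494). For both, each cecal tumor read above the duodenal tumor of its number, and with the block neither passed (limma adjusted p = 0.112 and 0.0517). The brightest gene of the list by its mean over 6 arrays, Pigr, gave -0.04 and did not pass (limma adjusted p = 0.919).

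Of 8 tested IL-4 and IL-13 response genes 2 rose and 1 fell (median log2 fold 0.13), where 5.7% of all tested genes rose and 4.75% fell. Retnlb, a goblet cell product, rose by 5.15 ± 0.98 (SE, limma adjusted p = 0.0151), a call lost without cecal tumor 1 (0.0731). Without duodenal tumor 2, the array with its lowest value, that fold was 3.95. Arg1, an arginase of alternatively activated macrophages, rose by 1.59 ± 0.30 (0.0153), lost without cecal tumor 2 (0.059) and with the males alone (0.0637). Clca1, another goblet cell product, fell by 3.12 on this scale (0.00228). Agr2, the brightest gene of the list by its mean over 6 arrays, gave -0.21 and did not pass (limma adjusted p = 0.708). Retnlb and Clca1, both inducible by IL-13, thus changed in opposite directions between sites at which Il13 and Il4 were below the brightness level on all arrays.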

How the data were processed

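RNA of 3 duodenal and 3 cecal tumors was measured on 1 Affymetrix array each, and titles gave group and number. The values are linear probe set intensities that the authors made with MAS5, per the submitters' processing notes, and deposited at a common scale (trimmed array means, 2nd to 98th percentile, of 499.1 to 499.9). The sources used here give no MAS5 version, detection call or genome build. No further normalization was applied. Of 22690 probe sets, 64 were controls and were left out, 20380 named 1 gene, 691 several and 1555 none. Symbols of all members matched RefSeq GRCm38.p6 gene ids.

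Probe sets above their array's 40th percentile on at least 3 arrays were compared on log2(intensity + 16), which understates folds of dim genes, with limma 3.58.1 in R 4.3.3 (eBayes with intensity trend, two-sided, Benjamini-Hochberg over 13866 probe sets, threshold 0.05), and the procedure was tested on simulated data. Where a group was dim on all its arrays and the other bright on all, the printed fold is a lower bound, setting the bright side's mean log2 intensity against the percentile level of the dim side. List genes were taken by their brightest tested probe set, and marker sums use each gene's brightest probe set. Intensities of different probe sets do not compare RNA amounts between genes, and the number of arrays limits precision.

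Members, gene lists and tests were chosen with earlier results of these data known. Named were members that passed, tested members that did not overlap between the sites, members that ranked among the 12 brightest genes or changed call under an alternative, with their ligands, receptors and antagonists, and from each list up to 4 that passed and up to 2 brightest. Il34, Il23a, Jak1, Casp4, Reg3g and the S100 genes were outside this rule and chosen after their values were seen. Same-numbered tumors deviated together from their group means (correlations 0.274, 0.299 and 0.203, against -0.2 to -0.0261 for other pairs), which meets the criterion for pairs, from the data alone (number 2 was female at both sites). Calls, folds and errors come from the fit without this block, and the blocked value is given where it changes a call and for Reg3b and Reg3g. Alternatives covered offset, filter, normalization, variance model, block and each array left out. The male arrays alone were added after the data were seen. Figures were drawn with Python 3.11.15 and matplotlib 3.10.9.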

Additional observations from a re-analysis of the deposited data

How the results depend on the processing

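Of 283 values of the 18 named member probe sets under up to 16 alternatives, 243 kept direction and side of the threshold, 27 lost the call, 11 gained it and 2 turned sign, both of members that had not passed: Il11 without cecal tumor 1 (0.26; -1.39 to 0.26 over the arrays left out) and Il6st without duodenal tumor 3 (0.04; -0.3 to 0.04). The calls of Il15 and Il18r1 held under every alternative that tested them, the filter at the 60th percentile having left both out. Both had entered the test through the 1 site where they were bright, and all of those alternatives except the fit with no filter kept that filter. The count of members, 7, was 4 with the males alone and ran from 3 to 6 with each array left out. A block on the replicate number gave 9, adding Il33 and the brightest Il13ra1 probe set. The count over all probe sets, 1290, was 1939 with array weights, 695 with the males alone and 658 to 1194 with each array left out. The count of pathway genes, 16, was 9 with the males alone and 10 to 15 with each array left out. With no filter on dim probe sets Il17rc was lost and an Il7 probe set (log2 fold 1.05, limma adjusted p = 0.0385) passed, so the count was again 7. Array weights gave 4 higher and 4 lower members, against 5 and 2. The block changed no call of the members other than those 2. Median log2 folds of all probe sets lay between -0.05 and 0.01 under each setting. Causes of these changes were not tested. Signal over background limits the 65 member probe sets that were not tested.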
